A study of Mus musculus with 8 samples.

Results

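The genes described here are 36 genes of glycolysis and of the response to low oxygen, taken by symbol from a count table of 55353 rows. They were named by their known functions, the rule used no measured value, and all 36 had a row. The choice was made with earlier results of these data known. Messenger RNA was sequenced in primary vascular smooth muscle cells from mouse aorta, the contractile cells of the vessel wall, after frozen cells had been thawed into culture dishes. The 4 groups were E12 knockout (E12 KO), E12 wild type (E12 WT), E47 knockout (E47 KO) and E47 wild type (E47 WT), with 2 libraries each from separate extractions and 8 libraries in all. E12 and E47 are proteins made from the same gene, Tcf3, by use of alternative exons for the DNA-binding domain, and both are E proteins, transcription factors that bind the E-box CANNTG. The labels name no oxygen level, no treatment, no age and no sex, and they do not say how each knockout was made or whether a genotype was cultured more than once or taken from more than 1 animal. A p-value here sets a change against the spread of repeat extractions, which may be only technical, and a genotype may be a single cell population.

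Glycolysis turns glucose into pyruvate in the cytosol, and lactate dehydrogenase and the monocarboxylate transporters then pass the carbon on as lactate. Vascular smooth muscle is known for making lactate even when oxygen is present. The transcription factor HIF1A raises many glycolytic genes. When oxygen is present the prolyl hydroxylases encoded by the Egln genes mark HIF1A for destruction, so its activity is set mostly at the protein, which RNA counts do not show.

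Library totals ran from 13909230 to 27517374 counts. Tcf3 was at 145 and 143 CPM in the E12 KO libraries, against 109 and 107 CPM in the E12 WT libraries (log2 change 0.41 ± 0.06 SE, adjusted p = 8.64e-05). Tcf3 stood at 128 and 128 CPM in the E47 KO libraries, against 94.5 and 93.7 CPM in the E47 WT libraries (log2 change 0.44 ± 0.06 SE, adjusted p = 3.41e-05). CPM are counts relative to library size, scaled by the TMM method of edgeR, and changes are log2 fold changes, knockout over wild type, with their standard errors (SE) and p-values of edgeR's quasi-likelihood test adjusted by the Benjamini-Hochberg method over 13992 genes. Tcf3 counts were thus higher in both knockouts, and because a count per gene does not separate the E12 exon from the E47 exon, they do not check the labels. The summed level of 8 smooth muscle markers was 1807 to 1836 CPM in E12 KO, 2108 to 2165 CPM in E12 WT, 2352 to 2390.5 CPM in E47 KO and 4209 to 4463 CPM in E47 WT, and none of the 8 was at 0 in any group. Acta2 made up most of this sum, at 1626 and 1650 CPM in E12 KO and 3693 and 3439 CPM in E47 WT. Myh11, Cnn1 and Des were lower in both knockouts, as Acta2 was. Mean Myh11 was 2.43 CPM in E12 KO, 7.44 in E12 WT, 6.92 in E47 KO and 98.2 in E47 WT. In the same order, mean Cnn1 was 2.31, 7.34, 19.8 and 103.5 CPM and mean Tagln 1.04, 1.71, 5.89 and 17.8 CPM. Smtn and Lmod1 were lower in E47 KO than in E47 WT but higher in E12 KO than in E12 WT. Myocd was lower in E12 KO, at a mean of 1.65 CPM against 11.3 CPM in E12 WT. It was higher in E47 KO, at 12.8 and 11.5 CPM, than in E47 WT, at 4.73 and 5.07 CPM. The summed level of 8 endothelial markers was 5.07 to 5.59 CPM in E12 KO, 8.90 to 10.1 CPM in E12 WT, 4.14 to 6.71 CPM in E47 KO and 643 to 707 CPM in E47 WT, with none of the 8 at 0 in any group and Pecam1 at 211 and 194 CPM in E47 WT. Not all 8 were high there: Kdr was at 2.15 and 2.65 CPM in E47 WT and Tek at 1.07 and 1.68 CPM. The E47 WT libraries thus stood apart from the other 6 in the summed level of these markers, and the part of this in the results below was not tested. The summed level of 5 mesothelial markers was 689 to 699.8 CPM in E12 KO, 1069 to 1170.0 CPM in E12 WT, 334 to 353 CPM in E47 KO and 86.5 to 89.1 CPM in E47 WT, with Wt1 at 0 in E47 WT, and the 7 fibroblast markers summed to 85.3 to 86.1 CPM in E47 WT and 166 to 372 CPM in the other libraries. Of these 7, Dcn, Col14a1, Dpt and Lum had their lowest mean in E47 WT. Scara5 and Pi16 had their highest mean there, at 15.8 and 4.57 CPM, and Pdgfra lay between. In bulk RNA, fewer cells of a type and less RNA per cell cannot be told apart.

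Of the 36 genes, 35 passed the filter on low counts. In E12 KO against E12 WT, 16 of the 35 were higher, 12 were lower and 7 did not pass the test at an adjusted p under 0.05. Over all genes tested, 21.9% were higher and 24.5% lower, 46.4% in all. The median log2 change of the 35 genes was 0.17, against -0.01 over all genes tested. In E47 KO against E47 WT, 17 were higher, 9 were lower and 9 did not pass, with 27.7% of all genes higher and 27.5% lower, 55.2% in all, and a median log2 change of 0.19 against 0.01 over all genes. The libraries of the 2 genotypes did not overlap for 34 of the 35 genes in E12 (19 higher and 15 lower, against 35% and 36.3% of all genes) and for 31 in E47 (22 higher and 9 lower, against 39.2% and 38.5%). Slc2a1 overlapped in E12, and Hk1, Pfkl, Pfkfb4 and Car9 overlapped in E47. Scaling by total counts in place of TMM shifted the median change of all genes by 0.09 in E12 and by 0.16 in E47 on the log2 scale. With that scaling, 18 were higher and 8 lower in E12, and 23 were higher and 6 lower in E47. Among all genes called, 59.4% were then higher in E12 and 67.1% in E47, where TMM gave 47.2% and 50.1%.

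Of the 35 genes, 10 were called in the same direction in both knockouts and 11 in opposite directions. These counts take only genes with an adjusted p under 0.05 in both comparisons. The second count was 7 under DESeq2, 6 without E47 KO library 1, 7 without E47 KO library 2 and 6 without E47 WT library 1, and the first lay between 7 and 12 in every alternative run. Higher in both were 8 genes, namely Hk2, Pfkp, Tpi1, Gapdh, Pgk1, Pdk1, Hif1a and Bnip3l, where 7.5% of all genes tested were higher in both. Lower in both were Egln1 and P4ha1 (8.63% of all genes). Lower in E12 KO and higher in E47 KO were 6 genes, Eno2, Slc16a1, Vegfa, P4ha2, Ndrg1 and Ddit4 (7.92% of all genes), and higher in E12 KO and lower in E47 KO were 5, Aldoa, Eno1, Ldha, Slc16a3 and Ankrd37 (5.3%). Slc2a1 and Hk1 passed in neither comparison (27.7% of all genes). The difference of the 2 changes, tested directly, passed for 30 of the 35 genes, 16 with the higher change in E12 and 14 with the higher change in E47, against 48.6% of all genes. The 4 genotypes differed in some way for all 35 genes, against 80.8% of all genes, and for 32 of them in the alternative with the fewest.

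**Figure D1:**
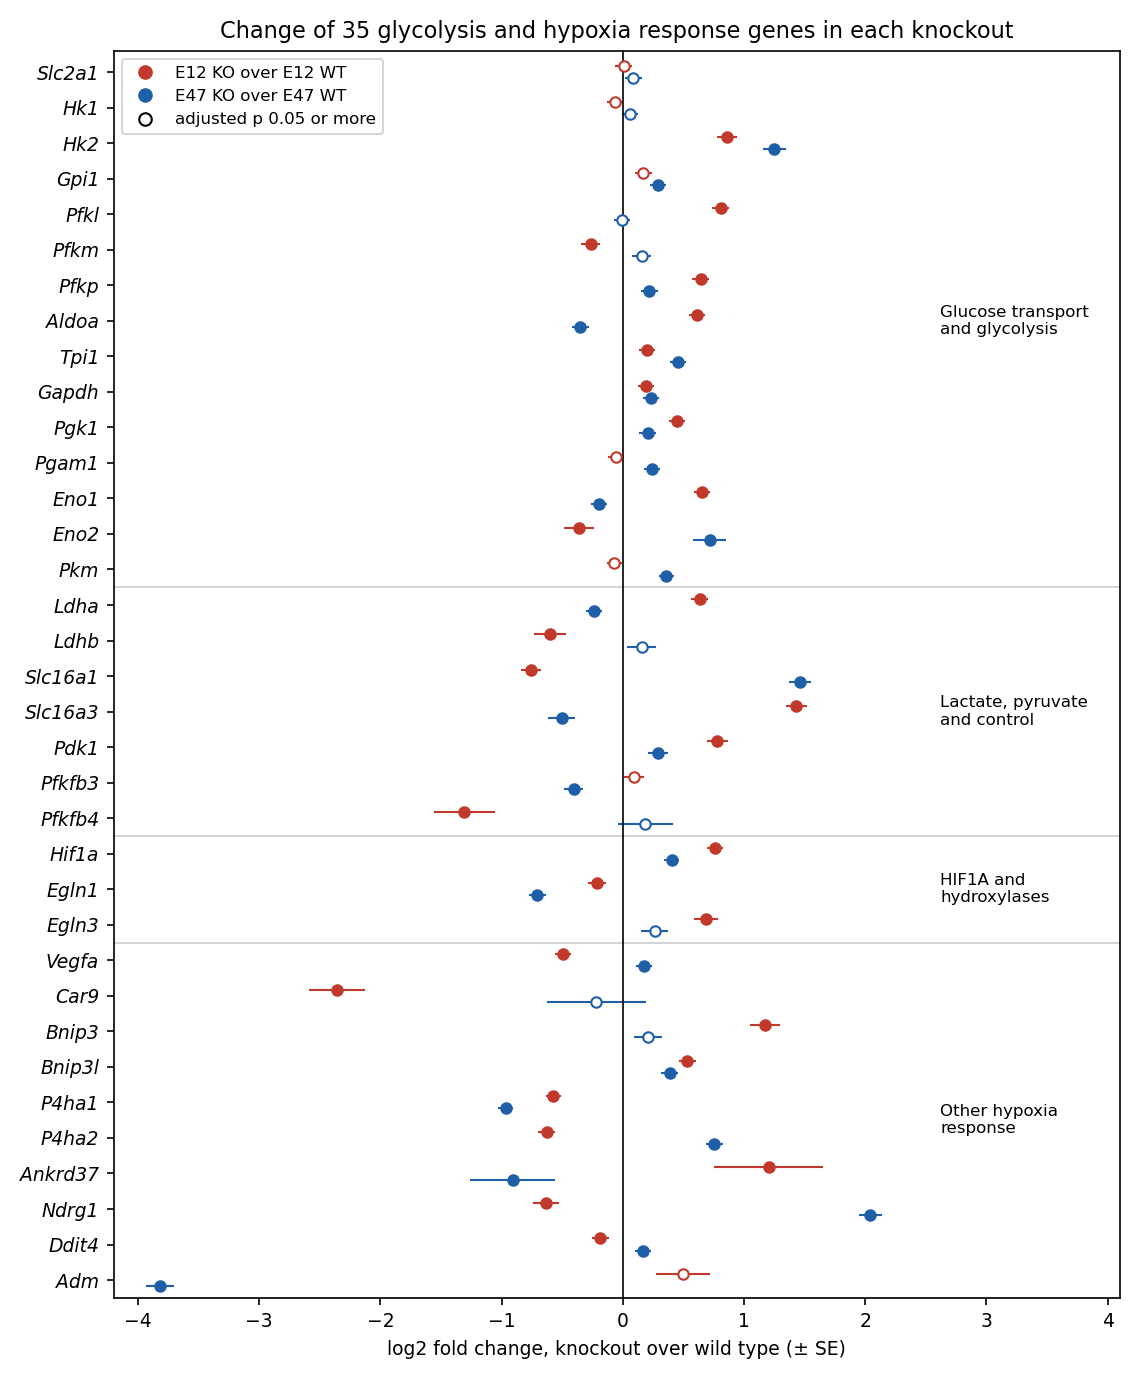
Log2 fold change, knockout over wild type, of each of the 35 genes tested, with E12 KO over E12 WT in red and E47 KO over E47 WT in blue, horizontal bars for ± SE, and open points where the adjusted p was 0.05 or more. Slc16a3 and Slc16a1 sit on opposite sides of 0 in each knockout, and Adm at -3.82 and Ndrg1 at 2.04 are the extremes, both in E47.

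Promoter sequence is shown for 5 of these genes: the transporter pair Slc16a3 and Slc16a1, which moved in opposite directions, Adm, with the largest fall, Hk2, with the largest rise of the 15 glycolysis genes tested, and Ldha, which moved against its partner subunit Ldhb in E12. Each line gives the 250 bases before the RefSeq transcript start in the build GRCm38.p6, written 5′ to 3′ on the strand of the gene. Capitals mark the core letters that HIF proteins are known to bind, ACGTG or GCGTG, on either strand, so that CACGT and CACGC are the same cores read from the other strand, and the palindrome CACGTG holds ACGTG on both strands.
Slc16a3, chr11:120948817-120949066, plus strand: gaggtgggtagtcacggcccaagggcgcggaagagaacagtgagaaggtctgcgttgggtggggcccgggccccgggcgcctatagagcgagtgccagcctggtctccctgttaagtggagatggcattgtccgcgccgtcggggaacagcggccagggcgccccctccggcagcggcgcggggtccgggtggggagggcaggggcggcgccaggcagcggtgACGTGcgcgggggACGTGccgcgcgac
Slc16a1, chr3:104638414-104638663, plus strand: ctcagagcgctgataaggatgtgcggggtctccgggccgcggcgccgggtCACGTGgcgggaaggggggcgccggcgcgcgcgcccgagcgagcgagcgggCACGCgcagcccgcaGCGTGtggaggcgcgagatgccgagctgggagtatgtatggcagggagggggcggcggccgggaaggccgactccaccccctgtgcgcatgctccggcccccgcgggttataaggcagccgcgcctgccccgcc
Adm, chr7:110627407-110627656, plus strand: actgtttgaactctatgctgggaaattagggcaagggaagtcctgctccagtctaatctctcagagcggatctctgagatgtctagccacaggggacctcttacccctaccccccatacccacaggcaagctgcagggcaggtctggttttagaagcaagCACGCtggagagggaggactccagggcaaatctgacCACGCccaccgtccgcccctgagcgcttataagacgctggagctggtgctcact
Hk2, chr6:82774455-82774704, minus strand: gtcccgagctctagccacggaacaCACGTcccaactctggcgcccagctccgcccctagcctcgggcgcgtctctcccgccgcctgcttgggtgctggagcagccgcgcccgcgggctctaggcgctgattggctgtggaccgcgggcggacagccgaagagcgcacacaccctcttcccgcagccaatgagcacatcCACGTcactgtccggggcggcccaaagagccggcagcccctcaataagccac
Ldha, chr7:46845554-46845803, plus strand: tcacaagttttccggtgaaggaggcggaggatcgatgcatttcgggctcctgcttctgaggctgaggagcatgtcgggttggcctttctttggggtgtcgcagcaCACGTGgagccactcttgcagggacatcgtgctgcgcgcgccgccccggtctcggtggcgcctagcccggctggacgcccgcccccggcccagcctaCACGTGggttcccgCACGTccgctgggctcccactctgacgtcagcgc
Counting each strand, ACGTG occurs 2 times before Slc16a3, 2 times before Slc16a1, 2 times before Hk2 and 5 times before Ldha, which has 2 CACGTG palindromes, and GCGTG occurs 2 times before Slc16a1 and 2 times before Adm. Of the 36 genes, 34 had a promoter in the RefSeq table, and 27 of these (79.4%) held ACGTG or GCGTG on either strand in the 250 bases, against 38.6% of 27025 genes. CACGTG was found in 5 of the 34 (14.7%), against 6.04%. The 34 genes were listed for roles in which HIF is known to act, and the 27025 genes were not matched to them in base content or level. These gaps may therefore come from the choice of genes. The E-boxes CAGCTG or CACCTG, letters that E proteins are known to bind, were found on either strand in 8 of the 34 (23.5%), against 27.4% of all genes, and in none of the 5 sequences printed. A match describes the letters and shows no binding, and genes that rose and genes that fell both held the HIF letters: Slc16a3 and Slc16a1 above are such a pair.

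Glucose uptake and the pathway down to pyruvate were covered by 16 of the genes, 15 of them tested. In E12 KO 8 were higher and 2 were lower (all genes tested, 21.9% and 24.5%), and in E47 KO 9 were higher and 2 were lower (27.7% and 27.5%). These shares of all genes stand beside the counts of each shorter list below too. The counts of the 16 genes together made up 0.753% and 0.725% of all counts in E12 KO, against 0.601% and 0.551% in E12 WT, and 0.602% and 0.612% in E47 KO, against 0.505% and 0.50% in E47 WT. These shares use raw totals. With TMM scaling the 16 genes summed to 7097 and 7006 CPM in E12 KO, against 5990.1 and 5734 CPM in E12 WT, and to 5753 and 5912 CPM in E47 KO, against 5396 and 5364 CPM in E47 WT. Both knockouts lay above their wild type with no overlap on either scale, and both gaps, relative to the wild type, were smaller with TMM. Per kilobase of exon, Pkm, the pyruvate kinase of the last step, had the highest mean level of the 36 genes in E12 KO, E12 WT and E47 KO, at 288, 303 and 269 CPM per kb. In E47 WT it stood at 210.3 CPM per kb, below the collagen hydroxylase P4ha1 at 337 and the aldolase Aldoa at 253 CPM per kb. Exon length was that of all annotated exons of a gene merged, which can exceed the length of its main transcript. Ranks between genes and shares within families, here and below, depend on that length and are only rough measures of relative transcript number.

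Slc2a1 (GLUT1), the glucose transporter of most cells, ran from 63.0 to 75.4 CPM over the 8 libraries, with log2 changes of 0.01 ± 0.07 SE in E12 (adjusted p = 0.945) and 0.09 ± 0.07 SE in E47 (adjusted p = 0.323). Hk1, the widely expressed hexokinase, ran from 217 to 259 CPM and passed in neither comparison (adjusted p = 0.482 in E12 and 0.476 in E47). Under total count scaling both were called higher in E47 KO, Slc2a1 by 0.24 (adjusted p = 0.0126) and Hk1 by 0.21 (0.0129) on the log2 scale. Hk2, the inducible hexokinase that carries out the first step of glycolysis, was at 138 and 136 CPM in the E12 KO libraries, against 72.3 and 78.8 CPM in the E12 WT libraries (log2 change 0.86 ± 0.08 SE, adjusted p = 8.03e-07). Hk2 stood at 46.5 and 49.3 CPM in the E47 KO libraries, against 17.9 and 21.8 CPM in the E47 WT libraries (log2 change 1.25 ± 0.09 SE, adjusted p = 3.75e-08). Hk2 thus rose in both knockouts, and its 4 genotypes kept the order E12 KO, E12 WT, E47 KO and E47 WT with no overlap. The rise was larger in E47 on the log2 scale (difference of the changes -0.39 ± 0.13 SE, adjusted p = 0.0172), a call that was lost without E47 KO library 2 (adjusted p = 0.0662) or without E47 WT library 1 (0.0978). Per kilobase, Hk2 made up 47.6% and 46.8% of the summed Hk1 and Hk2 level in E12 KO, against 31.5% and 32.8% in E12 WT, and 21.4% in both E47 KO libraries, against 9.92% and 11.1% in E47 WT. The makeup of this pair therefore moved toward Hk2 in each knockout, while Hk1 did not pass the test with TMM scaling.

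**Figure D2:**
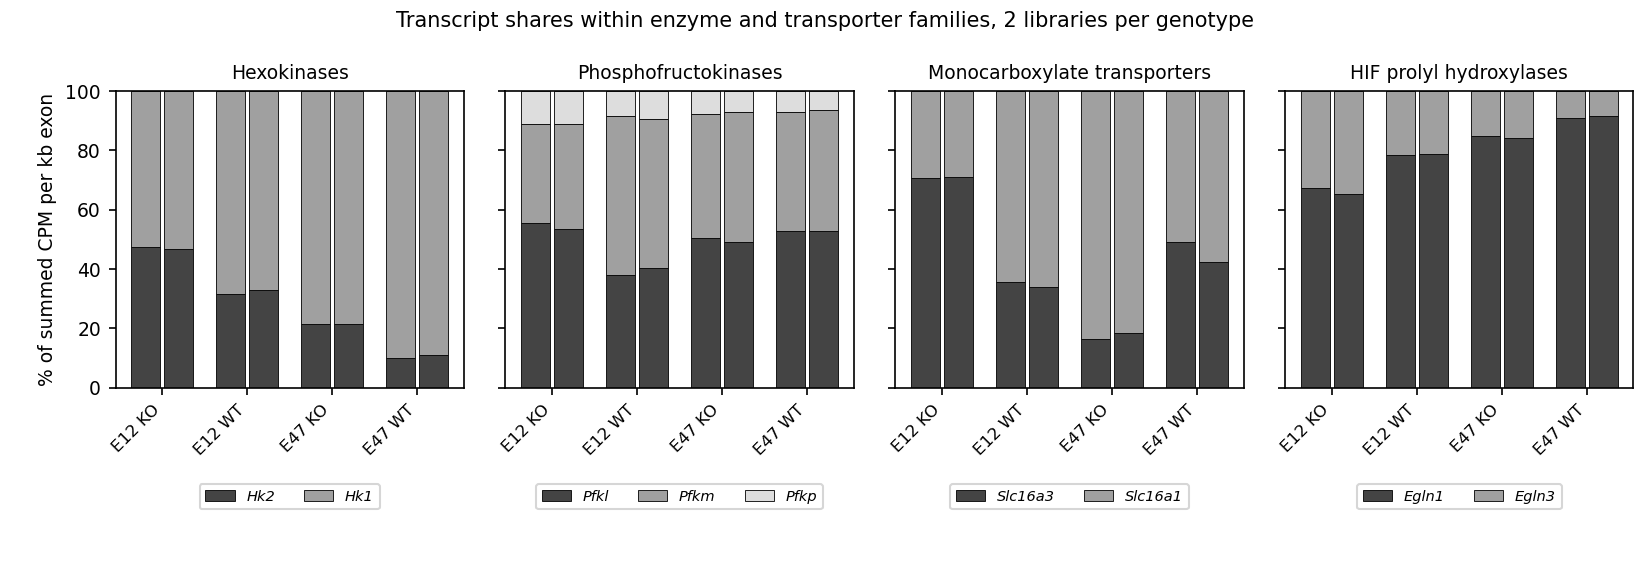
Share of each gene in the summed CPM per kilobase of exon of its family (percent, 1 bar per library), for the hexokinases, the phosphofructokinases, the 2 monocarboxylate transporters and the HIF prolyl hydroxylases, with E12 KO left of E12 WT and E47 KO left of E47 WT. Exon length is that of all annotated exons of a gene merged. Hk2 takes 47.6% and 46.8% in E12 KO against 31.5% and 32.8% in E12 WT, and Slc16a3 takes 70.6% and 71.1% in E12 KO but 16.6% and 18.4% in E47 KO.

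Phosphofructokinase makes the committed step of glycolysis. Pfkl, the liver-type subunit, was at 197 and 185 CPM in the E12 KO libraries, against 108 and 111 CPM in the E12 WT libraries (log2 change 0.81 ± 0.07 SE, adjusted p = 2.69e-07). Pfkl stood at 207 and 206 CPM in the E47 KO libraries, against 198 and 217 CPM in the E47 WT libraries (log2 change -0.01 ± 0.07 SE, adjusted p = 0.935). Pfkl was higher in E12 KO, where the E12 WT libraries lay below all 6 others, and did not pass in E47. Pfkp, the platelet-type subunit, was at 77.9 and 76.6 CPM in the E12 KO libraries, against 48 and 51 CPM in the E12 WT libraries (log2 change 0.64 ± 0.07 SE, adjusted p = 3.51e-06). Pfkp stood at 63.5 and 60.03 CPM in the E47 KO libraries, against 53.1 and 53.2 CPM in the E47 WT libraries (log2 change 0.22 ± 0.07 SE, adjusted p = 0.0170). The Pfkp rise in E47 was small and was lost under DESeq2 (adjusted p = 0.0913) and without E47 KO library 1 (0.105), E47 WT library 1 (0.0715) or E47 WT library 2 (0.0865). Pfkm, the muscle-type subunit, ran from 59.5 to 91.5 CPM, with a fall in E12 KO (log2 change -0.27 ± 0.08 SE, adjusted p = 0.0135) that was lost without E12 KO library 1 (0.0941) or E12 WT library 1 (0.101) and under total count scaling (0.0935), and it did not pass in E47 (log2 change 0.16 ± 0.08 SE, adjusted p = 0.102). Pfkl made up 55.6% and 53.4% of the family level per kilobase in E12 KO, against 37.9% and 40.3% in E12 WT, and 50.5% and 49.2% in E47 KO, against 52.9% in both E47 WT libraries.

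Aldoa, Eno1 and Eno2 were each called in opposite directions in the 2 knockouts, although the Eno1 call in E47 and the Eno2 call in E12 were lost in several alternatives. Aldoa, the aldolase that cleaves fructose bisphosphate, was at 809 and 777 CPM in the E12 KO libraries, against 535 and 503 CPM in the E12 WT libraries (log2 change 0.61 ± 0.07 SE, adjusted p = 3.84e-06). Aldoa stood at 553 and 599.6 CPM in the E47 KO libraries, against 751 and 719.7 CPM in the E47 WT libraries (log2 change -0.35 ± 0.07 SE, adjusted p = 0.000519). Aldoa thus rose in E12 KO and fell in E47 KO with no overlap in either pair, a difference of the changes of 0.96 ± 0.10 SE (adjusted p = 1.23e-06). Eno1, the main enolase, was at 1346 and 1382 CPM in the E12 KO libraries, against 900.3 and 834 CPM in the E12 WT libraries (log2 change 0.65 ± 0.07 SE, adjusted p = 1.10e-06). Eno1 stood at 941 and 949 CPM in the E47 KO libraries, against 1077 and 1086 CPM in the E47 WT libraries (log2 change -0.20 ± 0.06 SE, adjusted p = 0.0187). Eno1 rose in E12 KO, with E12 KO above all other libraries, and was lower in E47 KO, a call that was lost in each fit that left out 1 E47 library (adjusted p = 0.0964 without E47 KO library 1, 0.0751 without E47 KO library 2, 0.0581 without E47 WT library 1 and 0.0847 without E47 WT library 2). Scaling by total counts took the E47 change of Eno1 to -0.04 (adjusted p = 0.664). Eno2, the enolase best known from neurons, was at 9.03 and 8.35 CPM in the E12 KO libraries, against 10.7 and 11.7 CPM in the E12 WT libraries (log2 change -0.36 ± 0.12 SE, adjusted p = 0.0282). Eno2 stood at 8.47 and 8.36 CPM in the E47 KO libraries, against 5.37 and 4.95 CPM in the E47 WT libraries (log2 change 0.72 ± 0.14 SE, adjusted p = 0.000457). Eno2 was lower in E12 KO and higher in E47 KO. The Eno2 fall in E12 was lost under DESeq2 (adjusted p = 0.202), total count scaling (0.106) and no filter (0.0647), and without E12 KO library 1 (0.0574), E12 KO library 2 (0.141) or E12 WT library 2 (0.146). The difference of the Eno2 changes was -1.08 ± 0.19 SE (adjusted p = 0.000230).

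Log2 changes lay between -0.07 (Pkm) and 0.45 (Pgk1) in E12 and between 0.20 (Pgk1) and 0.45 (Tpi1) in E47 for 6 genes of the other steps, Gpi1, Tpi1, Gapdh, Pgk1, Pgam1 and Pkm, which encode glucose phosphate isomerase, triosephosphate isomerase, glyceraldehyde phosphate dehydrogenase, phosphoglycerate kinase, phosphoglycerate mutase and pyruvate kinase. All 6 were higher in E47 KO, with adjusted p from 4.74e-05 for Tpi1 to 0.0176 for Pgk1. In E12 KO, Tpi1, Gapdh and Pgk1 were higher, at log2 changes of 0.20, 0.19 and 0.45, and Gpi1, Pgam1 and Pkm did not pass (adjusted p = 0.0553, 0.517 and 0.390). Gpi1 did pass there, as higher, under total count scaling (0.00658) and no filter (0.0424). The E12 calls of Tpi1 and Gapdh were lost without E12 KO library 1 (adjusted p = 0.133 and 0.142) or without E12 WT library 2 (0.123 and 0.108), and that of Gapdh also with only the 4 E12 libraries fitted (0.0504). In E47, Pgk1 was lost without E47 KO library 1 (0.134), E47 WT library 1 (0.0956) or E47 WT library 2 (0.0591), Pgam1 without E47 KO library 1 (0.0556) or E47 WT library 2 (0.0779), and Gapdh without E47 KO library 2 (0.0527) or E47 WT library 2 (0.0985). Gapdh, often used as a reference gene, was at 1032 and 985 CPM in the E12 KO libraries, against 895 and 869 CPM in the E12 WT libraries. Gapdh stood at 752 and 781 CPM in the E47 KO libraries, against 676 and 629 CPM in the E47 WT libraries. Counting of Gapdh is uncertain: 196 copies of its transcript at 90% identity or more are annotated in the mouse genome, and those with rows held 8.02% to 8.95% as many counts as Gapdh. Copies of Pgam1 held 4.08% to 6.66% as many counts as Pgam1, and other genes cover 11.5% of the Gpi1 exons and 15.3% of the Pkm exons.

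Aldoc, an aldolase of brain, was the gene that the filter left out. It had 1 and 1 counts in E12 KO, 6 and 5 in E12 WT, 11 and 6 in E47 KO, and 2 and 2 in E47 WT. Each library of E12 KO and E47 WT was under the floor of 3 counts, and no fold is given.

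**Figure D3:**
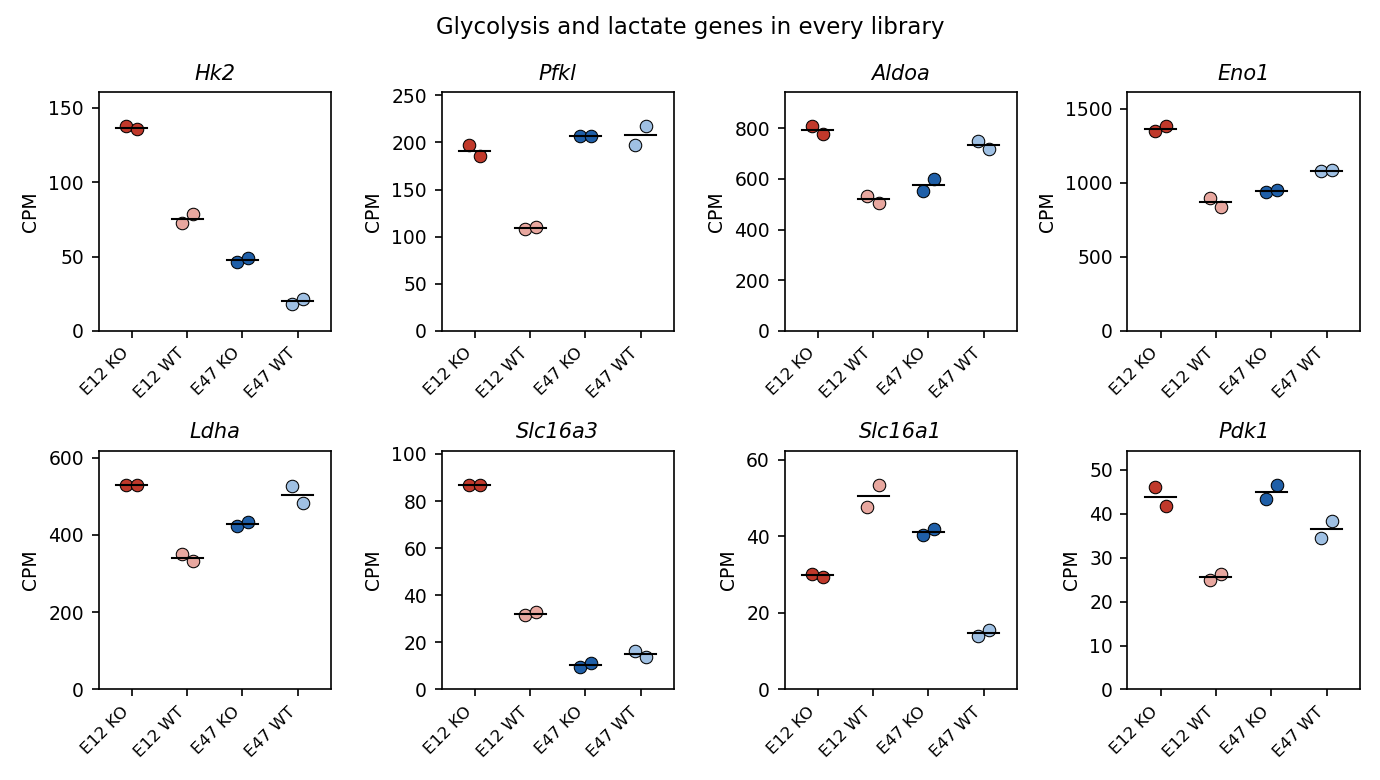
Level in CPM of 8 genes of glycolysis and lactate handling in each library, with 1 panel per gene, 2 points per genotype, a line at their mean, and an axis from 0; E12 KO stands left of E12 WT and E47 KO left of E47 WT. Aldoa, Eno1, Ldha and Slc16a3 are higher in E12 KO and lower in E47 KO than in their wild types, and Slc16a1 is the reverse.

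Lactate and pyruvate handling and the control of glycolysis were covered by 7 genes, all tested. In E12 KO 3 were higher (Ldha, Slc16a3 and Pdk1) and 3 were lower (Ldhb, Slc16a1 and Pfkfb4), and in E47 KO 2 were higher (Slc16a1 and Pdk1) and 3 were lower (Ldha, Slc16a3 and Pfkfb3). The difference of the changes passed for all 7, against 48.6% of all genes tested. Ldha, the lactate dehydrogenase subunit that favours making lactate, was at 530.3 and 529 CPM in the E12 KO libraries, against 351 and 332 CPM in the E12 WT libraries (log2 change 0.63 ± 0.07 SE, adjusted p = 2.22e-06). Ldha stood at 423 and 433 CPM in the E47 KO libraries, against 527 and 482 CPM in the E47 WT libraries (log2 change -0.24 ± 0.07 SE, adjusted p = 0.00772). Ldha was thus higher in E12 KO with no overlap. The E47 fall was lost without E47 KO library 1 (adjusted p = 0.0664) or E47 WT library 1 (0.0971) and under total count scaling, where the change was -0.08 (0.365). Ldhb, the subunit of heart, was at 14.7 and 10.5 CPM in the E12 KO libraries, against 19.9 and 18.8 CPM in the E12 WT libraries (log2 change -0.60 ± 0.13 SE, adjusted p = 0.00164). Ldhb stood at 22.7 and 23.5 CPM in the E47 KO libraries, against 21.8 and 19.9 CPM in the E47 WT libraries (log2 change 0.15 ± 0.12 SE, adjusted p = 0.289). Ldhb fell in E12 KO while Ldha rose. Its share of the summed Ldha and Ldhb level per kilobase was 5.53% and 4.02% in E12 KO, against 10.7% and 10.6% in E12 WT, and 10.1% and 10.3% in E47 KO, against 8.04% and 8.0% in E47 WT.

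The 2 monocarboxylate transporters moved against each other in both pairs. Slc16a3 (MCT4), which exports lactate from glycolytic cells, was at 87 and 86.9 CPM in the E12 KO libraries, against 31.7 and 32.8 CPM in the E12 WT libraries (log2 change 1.43 ± 0.09 SE, adjusted p = 3.87e-09). Slc16a3 stood at 9.62 and 11.4 CPM in the E47 KO libraries, against 16.2 and 13.8 CPM in the E47 WT libraries (log2 change -0.50 ± 0.11 SE, adjusted p = 0.00152). Slc16a3 thus rose 2.7-fold in E12 KO, above every other library, and fell in E47 KO with no overlap. Slc16a1 (MCT1), which moves lactate and pyruvate in either direction, was at 30.1 and 29.4 CPM in the E12 KO libraries, against 47.7 and 53.4 CPM in the E12 WT libraries (log2 change -0.76 ± 0.08 SE, adjusted p = 2.80e-06). Slc16a1 stood at 40.3 and 41.9 CPM in the E47 KO libraries, against 14 and 15.5 CPM in the E47 WT libraries (log2 change 1.46 ± 0.09 SE, adjusted p = 3.60e-09). Slc16a1 went the other way in both pairs, lower in E12 KO and 2.76-fold higher in E47 KO. The differences of the changes were 1.93 ± 0.14 SE for Slc16a3 (adjusted p = 3.35e-08) and -2.22 ± 0.12 SE for Slc16a1 (adjusted p = 1.45e-09), and both kept their calls in every alternative run. Slc16a3 made up 70.6% and 71.1% of the summed level of the pair per kilobase in E12 KO, against 35.6% and 33.8% in E12 WT, and 16.6% and 18.4% in E47 KO, against 49.0% and 42.5% in E47 WT. The transporter makeup therefore moved toward Slc16a3 in E12 KO and toward Slc16a1 in E47 KO.

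Pdk1, a kinase that holds pyruvate back from the mitochondrion by switching off pyruvate dehydrogenase, was at 46.1 and 41.7 CPM in the E12 KO libraries, against 25 and 26.2 CPM in the E12 WT libraries (log2 change 0.78 ± 0.09 SE, adjusted p = 4.20e-06). Pdk1 stood at 43.5 and 46.7 CPM in the E47 KO libraries, against 34.6 and 38.4 CPM in the E47 WT libraries (log2 change 0.29 ± 0.08 SE, adjusted p = 0.00787). Pdk1 rose in E12 KO, and its smaller rise in E47 KO was lost without E47 KO library 2 (adjusted p = 0.0617) or E47 WT library 1 (0.0785). Pfkfb3 and Pfkfb4 encode bifunctional enzymes that set the level of fructose 2,6-bisphosphate, the activator of phosphofructokinase. Pfkfb4 was at 2.32 and 1.98 CPM in the E12 KO libraries, against 4.28 and 6.58 CPM in the E12 WT libraries (log2 change -1.31 ± 0.25 SE, adjusted p = 0.000568). Pfkfb4 stood at 4.73 and 3.54 CPM in the E47 KO libraries, against 4.01 and 3.47 CPM in the E47 WT libraries (log2 change 0.19 ± 0.23 SE, adjusted p = 0.517). Pfkfb4 was thus lower in E12 KO at a low level, where the E12 WT libraries differed from each other more than the E12 KO libraries did, and its libraries overlapped in E47. Pfkfb3 did not pass in E12 (log2 change 0.09 ± 0.08 SE, adjusted p = 0.389) and was lower in E47 KO, at 48.7 and 51.7 CPM in the E47 KO libraries, against 62.3 and 70.1 CPM in the E47 WT libraries (log2 change -0.41 ± 0.08 SE, adjusted p = 0.000434).

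HIF1A and 2 of its prolyl hydroxylases were the oxygen-sensing genes of the set. Hif1a, on chromosome 12 at 73901375 to 73947530 in GRCm38, was at 152 and 149.6 CPM in the E12 KO libraries, against 88.2 and 89.8 CPM in the E12 WT libraries (log2 change 0.76 ± 0.07 SE, adjusted p = 2.91e-07). Hif1a stood at 154 and 155 CPM in the E47 KO libraries, against 113 and 121 CPM in the E47 WT libraries (log2 change 0.40 ± 0.07 SE, adjusted p = 0.000110). Hif1a transcripts were higher in both knockouts with no overlap, 1.69-fold in E12 and 1.32-fold in E47, and the 4 knockout libraries lay above all 4 wild-type libraries. Egln1 (PHD2), the main oxygen sensor that marks HIF1A, was at 69 and 72 CPM in the E12 KO libraries, against 80.1 and 83.3 CPM in the E12 WT libraries (log2 change -0.21 ± 0.07 SE, adjusted p = 0.0229). Egln1 stood at 88.2 and 85.6 CPM in the E47 KO libraries, against 137 and 147 CPM in the E47 WT libraries (log2 change -0.70 ± 0.07 SE, adjusted p = 6.53e-07). Egln1 fell in E47 KO, and its small fall in E12 KO was lost under DESeq2 (adjusted p = 0.0534), total count scaling (0.185) and no filter (0.0935), and without E12 KO library 1 (0.156), E12 KO library 2 (0.0550) or E12 WT library 2 (0.0929). Egln3 (PHD3), itself a gene that HIF raises, was at 24.7 and 28.3 CPM in the E12 KO libraries, against 16.3 and 16.5 CPM in the E12 WT libraries (log2 change 0.69 ± 0.10 SE, adjusted p = 4.02e-05). Egln3 stood at 11.6 and 12 CPM in the E47 KO libraries, against 9.96 and 9.75 CPM in the E47 WT libraries (log2 change 0.26 ± 0.11 SE, adjusted p = 0.0630). Egln3 rose in E12 KO and did not pass in E47, although its libraries did not overlap there. Under total count scaling it passed in E47 (log2 change 0.42, adjusted p = 0.00507). The difference between its changes (0.43 ± 0.15 SE, adjusted p = 0.0286) was lost without E12 KO library 2 (adjusted p = 0.110), E12 WT library 1 (0.0663), E47 KO library 1 (0.0807), E47 KO library 2 (0.0518), E47 WT library 1 (0.0632) or E47 WT library 2 (0.0734), under DESeq2 (0.164) and under total count scaling (0.0620). Egln3 made up 32.6% and 34.7% of the summed Egln1 and Egln3 level per kilobase in E12 KO, against 21.5% and 21.1% in E12 WT, and 15.1% and 15.9% in E47 KO, against 8.96% and 8.24% in E47 WT.

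The other 10 hypoxia response genes had no common direction. In E12 KO 3 were higher and 6 were lower, with a median log2 change of -0.34, and in E47 KO 5 were higher and 3 were lower, with a median of 0.17. Adm, which encodes adrenomedullin, a peptide that widens vessels, was at 2.61 and 2.64 CPM in the E12 KO libraries, against 2.11 and 1.57 CPM in the E12 WT libraries (log2 change 0.50 ± 0.22 SE, adjusted p = 0.0780). Adm stood at 3.74 and 4.28 CPM in the E47 KO libraries, against 57.8 and 55 CPM in the E47 WT libraries (log2 change -3.82 ± 0.11 SE, adjusted p = 8.29e-13). Adm was the gene with the largest change of the set: it fell to 0.0709 of its E47 WT level in E47 KO, and the E47 WT libraries stood far above all 6 others. The endothelial markers, summing to 6.71 and 4.14 CPM in E47 KO and to 707 and 643 CPM in E47 WT, moved with Adm, and their part in the Adm fall was not tested.

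Ndrg1, a gene raised by hypoxia and by differentiation, was at 15.2 and 12.9 CPM in the E12 KO libraries, against 23.5 and 20.2 CPM in the E12 WT libraries (log2 change -0.63 ± 0.11 SE, adjusted p = 0.000261). Ndrg1 stood at 73 and 79.5 CPM in the E47 KO libraries, against 17.9 and 18.9 CPM in the E47 WT libraries (log2 change 2.04 ± 0.09 SE, adjusted p = 1.32e-10). Ndrg1 fell in E12 KO and rose 4.11-fold in E47 KO, which lay above every other library, and the difference of the changes was -2.67 ± 0.15 SE (adjusted p = 1.30e-09). Car9, a membrane carbonic anhydrase that is a common marker of HIF activity, was at 2.37 and 1.2 CPM in the E12 KO libraries, against 9.44 and 9.42 CPM in the E12 WT libraries (log2 change -2.36 ± 0.23 SE, adjusted p = 1.05e-06). Car9 stood at 0.988 and 0.668 CPM in the E47 KO libraries, against 1.07 and 0.936 CPM in the E47 WT libraries (log2 change -0.22 ± 0.41 SE, adjusted p = 0.675). Car9 was low everywhere but in E12 WT, falling in E12 KO and overlapping in E47. The summed level of the 5 mesothelial markers was 689 to 699.8 CPM in E12 KO and 1069 to 1170.0 CPM in E12 WT, and its part in the Car9 fall was not tested. Msln, 1 of the 5, was higher in E12 KO, at 253 and 237 CPM, against 214 and 196 CPM in E12 WT (log2 change 0.26, adjusted p = 0.00756). The difference of the Car9 changes (-2.14 ± 0.49 SE, adjusted p = 0.00226) was lost without E47 KO library 1. Vegfa, the growth factor that draws new vessels, was at 115 and 115 CPM in the E12 KO libraries, against 162 and 161 CPM in the E12 WT libraries (log2 change -0.49 ± 0.07 SE, adjusted p = 2.19e-05). Vegfa stood at 177 and 174 CPM in the E47 KO libraries, against 150.4 and 161 CPM in the E47 WT libraries (log2 change 0.17 ± 0.06 SE, adjusted p = 0.0333). Vegfa fell in E12 KO. Its rise in E47 KO was lost under DESeq2 (adjusted p = 0.0930) and no filter (0.0662), and without E47 KO library 1 (0.110), E47 KO library 2 (0.0771) or E47 WT library 1 (0.238).

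Bnip3 and Bnip3l act in mitophagy, the removal of mitochondria. Bnip3 was at 23.7 and 19.7 CPM in the E12 KO libraries, against 10.3 and 8.97 CPM in the E12 WT libraries (log2 change 1.17 ± 0.12 SE, adjusted p = 2.05e-06). Bnip3 stood at 18 and 17.7 CPM in the E47 KO libraries, against 16.6 and 14.6 CPM in the E47 WT libraries (log2 change 0.21 ± 0.11 SE, adjusted p = 0.135). Bnip3 rose 2.25-fold in E12 KO and did not pass in E47. A predicted gene on the opposite strand covers 22.3% of its exons, and libraries without strand cannot separate the pair. Bnip3l was at 120.0 and 116 CPM in the E12 KO libraries, against 85.1 and 77.8 CPM in the E12 WT libraries (log2 change 0.53 ± 0.07 SE, adjusted p = 2.31e-05). Bnip3l stood at 122 and 116 CPM in the E47 KO libraries, against 89.97 and 92.4 CPM in the E47 WT libraries (log2 change 0.39 ± 0.07 SE, adjusted p = 0.000306). Bnip3l rose in both knockouts with no overlap, and the difference between its changes did not pass (0.15 ± 0.10 SE, adjusted p = 0.246). A copy of Bnip3l held 3.40% to 5.38% as many counts as Bnip3l.

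P4ha1 and P4ha2 encode the catalytic subunits of the enzyme that hydroxylates proline in collagen. P4ha1 was at 497 and 500.3 CPM in the E12 KO libraries, against 732 and 752 CPM in the E12 WT libraries (log2 change -0.57 ± 0.06 SE, adjusted p = 2.90e-06). P4ha1 stood at 706 and 711 CPM in the E47 KO libraries, against 1359 and 1412 CPM in the E47 WT libraries (log2 change -0.97 ± 0.06 SE, adjusted p = 6.74e-09). P4ha1 fell in both knockouts with no overlap, and the E47 WT libraries were the highest of the 8. P4ha2 was at 71.4 and 68.5 CPM in the E12 KO libraries, against 111 and 105 CPM in the E12 WT libraries (log2 change -0.63 ± 0.07 SE, adjusted p = 4.20e-06). P4ha2 stood at 137 and 146 CPM in the E47 KO libraries, against 85.2 and 82.4 CPM in the E47 WT libraries (log2 change 0.75 ± 0.07 SE, adjusted p = 3.60e-07). P4ha2 fell in E12 KO alongside P4ha1 but rose in E47 KO, where P4ha1 fell, with a difference of the changes of -1.38 ± 0.10 SE (adjusted p = 3.09e-08).

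Ankrd37 and Ddit4 gave calls that depended on the setting. Ankrd37, a gene that HIF raises, was at 1.54 and 0.781 CPM in the E12 KO libraries, against 0.638 and 0.374 CPM in the E12 WT libraries (log2 change 1.20 ± 0.45 SE, adjusted p = 0.0407). Ankrd37 stood at 0.936 and 0.936 CPM in the E47 KO libraries, against 1.65 and 1.83 CPM in the E47 WT libraries (log2 change -0.91 ± 0.35 SE, adjusted p = 0.0397). The libraries did not overlap in either pair. In E12 the call was lost under DESeq2 (adjusted p = 0.175), with only the 4 E12 libraries fitted (0.0680) and without 1 of the libraries E12 KO 1 (log2 change 0.60, adjusted p = 0.450), E12 WT 2 (0.90, 0.193), E47 KO 1, E47 KO 2, E47 WT 1 or E47 WT 2 (0.0550 to 0.0567). In E47 it was lost under DESeq2 (0.248), total count scaling (0.0827) and without any 1 of the E47 libraries (0.0719 to 0.210). Genes on the opposite strand cover 26.4% of the Ankrd37 exons. Ddit4, an inhibitor of the growth kinase mTORC1, ran from 70.7 to 90.3 CPM, lower in E12 KO (log2 change -0.18 ± 0.07 SE, adjusted p = 0.0366) and higher in E47 KO (log2 change 0.17 ± 0.07 SE, adjusted p = 0.0461). Its E12 call was lost without any 1 library (adjusted p from 0.0554 to 0.179), under DESeq2 (0.102), total count scaling (0.328) and no filter (0.191), and with only the 4 E12 libraries fitted (0.0649). Its E47 call was lost without any 1 of 6 libraries, E12 KO 1 or 2 (0.0510 and 0.0514), E47 KO 1 or 2 (0.0995 and 0.127) and E47 WT 1 or 2 (0.0985 and 0.229), and under RLE scaling (0.0683), no filter (0.110) and DESeq2 (0.175).

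**Figure D4:**
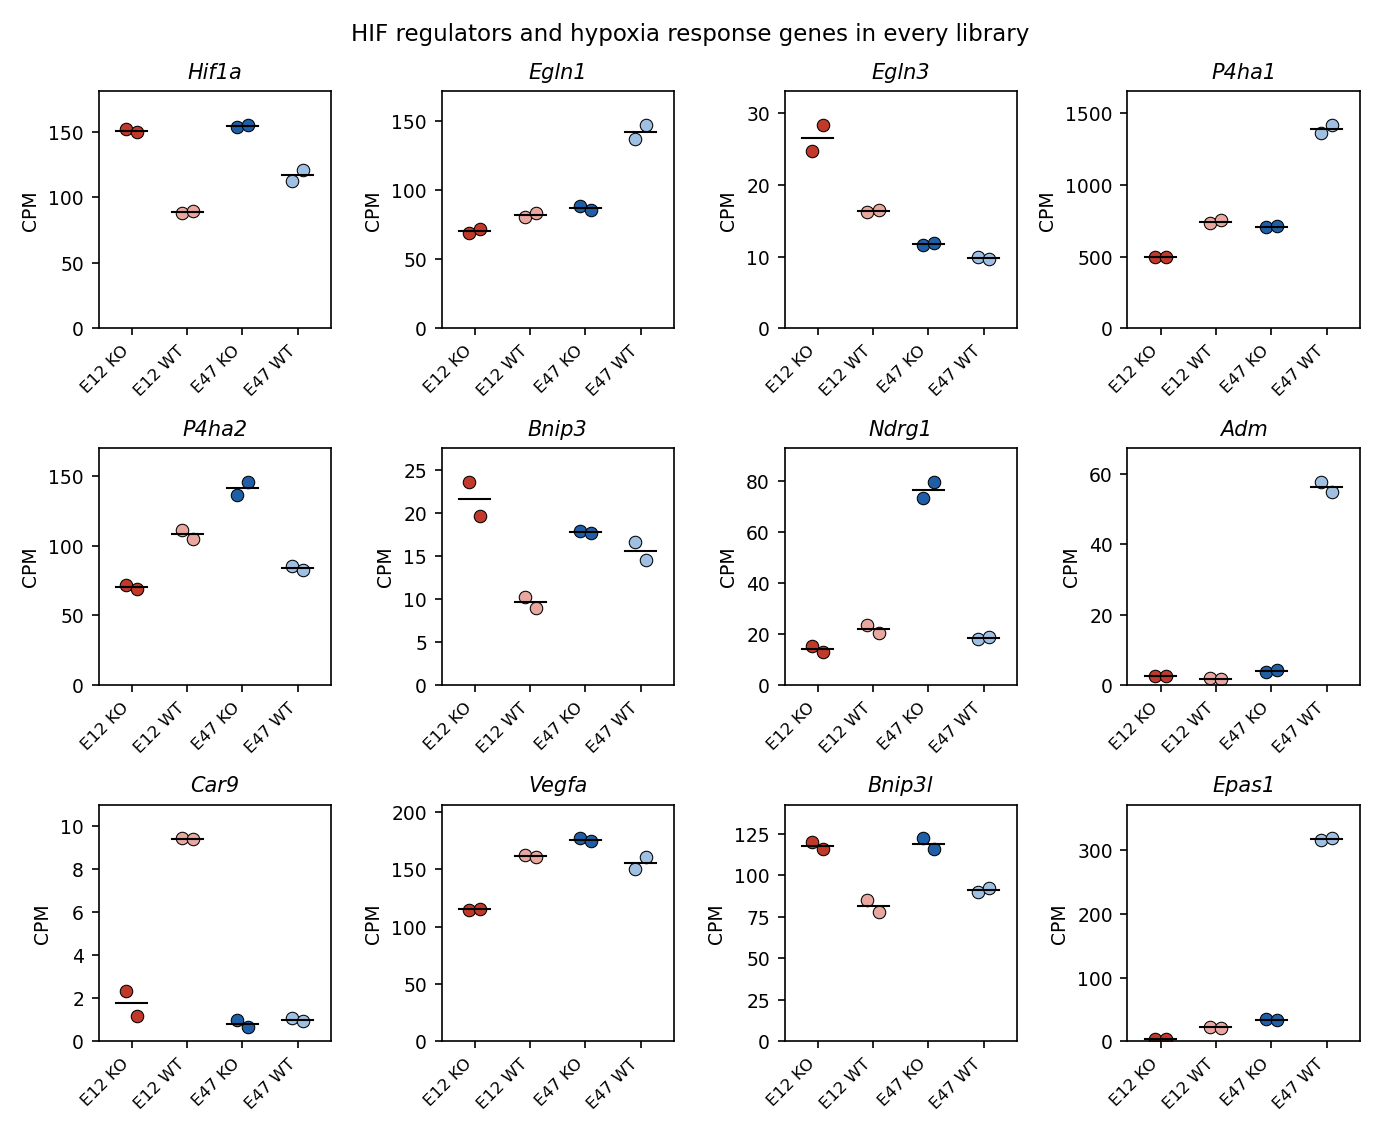
Level in CPM of Hif1a, the hydroxylases Egln1 and Egln3, 8 further hypoxia response genes and Epas1 in each library, with 1 panel per gene, 2 points per genotype, a line at their mean, and an axis from 0; E12 KO stands left of E12 WT and E47 KO left of E47 WT. Hif1a and Bnip3l are higher in both knockouts, P4ha1 and Epas1 are lower in both, and Adm and Epas1 are far highest in E47 WT.

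The wild types themselves differed. In E12 WT against E47 WT, 13 of the 35 genes were higher, 12 were lower and 10 did not pass, where 27.8% of all genes were higher and 27.6% lower, 55.4% in all. The libraries did not overlap for 16 that were higher (38.3% of all genes) and 16 that were lower (38.5%). These values share the wild-type libraries with the knockout comparisons above. Higher in E12 WT were Car9 (log2 difference 3.25 ± 0.26 SE, adjusted p = 5.61e-08), Hk2 (1.91 ± 0.09 SE, 1.50e-10) and Slc16a1 (1.76 ± 0.09 SE, 2.46e-10), and also Slc16a3 (1.13) and Eno2 (1.13). Lower in E12 WT were Adm (-4.92 ± 0.13 SE, 2.12e-13), Pfkl (-0.93 ± 0.07 SE, 2.98e-08) and P4ha1 (-0.90 ± 0.06 SE, 1.04e-08). The labels do not say whether the 2 wild types share a strain or a litter, so genotype line and cell culture cannot be told apart here. Egln1, Hif1a and Ldha were also lower in E12 WT, by log2 differences of -0.79, -0.39 and -0.56.

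Beyond the 36 genes, 108 further genes of these pathways were listed, and 92 were tested. In E12 KO 24 were higher and 37 lower (all genes tested, 21.9% and 24.5%), and in E47 KO 33 were higher and 26 lower (27.7% and 27.5%). Of 16 tested components of the HIF pathway, 2 were higher and 5 lower in E12 KO, and 7 were higher and 7 lower in E47 KO. Epas1, which encodes HIF2A, the HIF subunit best known from endothelium, was at 4.39 and 3.24 CPM in the E12 KO libraries, against 23 and 21.8 CPM in the E12 WT libraries (log2 change -2.53 ± 0.12 SE, adjusted p = 3.71e-10). Epas1 stood at 34.6 and 33.9 CPM in the E47 KO libraries, against 317 and 319 CPM in the E47 WT libraries (log2 change -3.21 ± 0.08 SE, adjusted p = 2.37e-13). Epas1 fell in both knockouts, the reverse of Hif1a, and was highest in E47 WT, where the endothelial markers summed to 707 and 643 CPM, and their part in the fall was not tested. Cited2, which competes with HIF for its coactivator, averaged 35.8 ± 2.07 CPM in E12 KO and 69 ± 0.574 CPM in E12 WT (log2 change -0.95 ± 0.07 SE, adjusted p = 7.83e-08) and 70.2 ± 0.432 CPM in E47 KO and 91.5 ± 2.06 CPM in E47 WT (log2 change -0.38 ± 0.07 SE, adjusted p = 0.000274). Cited2 thus fell in both. In E12 KO, Arnt2, a partner of HIF subunits, fell (log2 change -0.67 ± 0.08 SE, adjusted p = 9.07e-06) and Cul2, a part of the VHL ubiquitin ligase, rose (log2 change 0.58 ± 0.09 SE, adjusted p = 8.61e-05). In E47 KO, Siah2, a ubiquitin ligase, and Arntl, a clock factor, fell by 0.82 and 1.11 on the log2 scale.

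Of 40 further hypoxia target genes tested, 14 were higher and 17 lower in E12 KO, and 18 were higher and 13 lower in E47 KO. Edn1, the vasoconstrictor endothelin, averaged 22.2 ± 0.169 CPM in E47 KO and 146 ± 6.07 CPM in E47 WT (log2 change -2.72 ± 0.08 SE, adjusted p = 4.72e-13) and fell by 0.57 on the log2 scale in E12 KO. Angptl4, an inhibitor of lipoprotein lipase, averaged 18.1 ± 1.15 CPM in E12 KO and 3.37 ± 0.111 CPM in E12 WT (log2 change 2.42 ± 0.18 SE, adjusted p = 4.06e-08). Angptl4 rose in E47 KO too (log2 change 2.14 ± 0.22 SE, adjusted p = 1.23e-06). Igfbp3, a binding protein of insulin-like growth factors, averaged 276 ± 30.4 CPM in E47 KO and 26 ± 1.66 CPM in E47 WT (log2 change 3.42 ± 0.10 SE, adjusted p = 5.20e-13), the largest rise named here, and fell by 0.49 on the log2 scale in E12 KO. Plod2, a collagen lysyl hydroxylase, averaged 314 ± 9.74 CPM in E47 KO and 694 ± 42.1 CPM in E47 WT (log2 change -1.14 ± 0.07 SE, adjusted p = 2.58e-09) and fell by 0.64 on the log2 scale in E12 KO, so it moved with P4ha1 in direction. The phosphatase gene Dusp1 and the nuclear receptor gene Rora fell in E12 KO by 1.23 and 1.89 on the log2 scale. The endothelial markers summed to 6.71 and 4.14 CPM in E47 KO and to 707 and 643 CPM in E47 WT, and their part in the falls of Edn1 and Plod2 was not tested.

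Of 16 tested genes among the other glycolytic isoenzymes and regulators, 2 were higher and 10 lower in E12 KO, and 3 were higher and 5 lower in E47 KO. Eno3, the enolase of muscle, was at 148 and 149.9 CPM in the E12 KO libraries, against 73.4 and 63.8 CPM in the E12 WT libraries (log2 change 1.12 ± 0.08 SE, adjusted p = 3.13e-08). Eno3 stood at 22.9 and 21.4 CPM in the E47 KO libraries, against 4.3 and 5.11 CPM in the E47 WT libraries (log2 change 2.21 ± 0.12 SE, adjusted p = 8.38e-10). Eno3 rose in both knockouts and kept the order of genotypes seen for Hk2, E12 KO above E12 WT, E47 KO and E47 WT with no overlap. Adpgk, a glucokinase that uses ADP, averaged 41.8 ± 1.4 CPM in E12 KO and 70.7 ± 3.42 CPM in E12 WT (log2 change -0.76 ± 0.07 SE, adjusted p = 9.06e-07), and the glucose transporter Slc2a10 fell by 0.95 on the log2 scale in E12 KO and by 0.59 in E47 KO. Slc2a6, another glucose transporter, fell by 1.95 in E12 KO at levels under 3 CPM. Bsg, the chaperone that carries both monocarboxylate transporters to the membrane, averaged 1421 ± 88.4 CPM in E47 KO and 2353 ± 181 CPM in E47 WT (log2 change -0.73 ± 0.08 SE, adjusted p = 1.62e-06), and Bpgm, which makes 2,3-bisphosphoglycerate, fell by 0.89 on the log2 scale in E47 KO.

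Of 12 genes of pyruvate dehydrogenase and its regulators, 2 were higher and 4 lower in E12 KO, and 3 were higher and 1 lower in E47 KO. Pdk3 and Pdk4, the relatives of Pdk1, fell in E12 KO, by 0.63 and 0.74 on the log2 scale, where Pdk1 rose, and Dlat, a core subunit of the complex, fell by 0.42. Pdha1, the catalytic subunit, rose in both knockouts, by 0.29 in E12 (adjusted p = 0.00238) and 0.34 in E47 (adjusted p = 0.000530), though a gene on the opposite strand covers 16.1% of its exons. In E47 KO, Mpc2, a subunit of the mitochondrial pyruvate carrier, and Pdk2 rose by 0.66 and 0.51, and Pdk3 fell by 0.35. Of 8 genes of the pentose phosphate pathway, 4 were higher and 1 lower in E12 KO, and 2 were higher and none lower in E47 KO. Pgd and G6pdx, the dehydrogenases that make NADPH, rose in both, Pgd by 0.27 and 0.55 and G6pdx by 0.28 and 0.47 in E12 and E47. Rpe, an epimerase of the pathway, rose by 0.27 in E12 KO, and Pgls, its lactonase, fell by 0.30 there. Exons of G6pdx, Rpe and Pgls are covered by other genes over 13.6%, 17.9% and 20.6% of their length, and shared reads make their counts uncertain.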

How the data were processed

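Counts per gene were deposited by the authors as whole numbers, not normalized, with 1 column for each of the 8 libraries. Per the labels' protocols, RNA was extracted with Trizol and made into polyA-enriched libraries without strand. FastQC, HISAT, featureCounts and the build GRCm38 (mm10) are named per the submitters' processing notes, while versions, settings and annotation were not given in the sources used here. Of 55353 rows, 26 carry names turned into dates, which hold up to 0.198% of a library's counts and were kept in the totals.

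R 4.3.3 with edgeR 4.0.16 was used on the deposited counts. The filter that edgeR offers for 4 groups left 13992 genes, libraries were scaled by TMM, the 8 libraries entered 1 model of 4 groups with no covariate, and each contrast got a quasi-likelihood F test, adjusted by Benjamini-Hochberg over all genes tested at 0.05. The code was tested on simulated data. DESeq2 1.42.0, RLE scaling, total counts, no filter, fits of only the 4 libraries compared and leaving out each library were the alternatives. The genes, the lists and the rules were chosen with earlier results of these data known. Values in every library are given for genes past the test with a log2 change of at least 0.5 in a knockout or in the difference, and for those at 3 counts or fewer in a group. Of each list of further genes, up to 4 per knockout with the lowest p were named, and other values of those genes were chosen after they were seen. A gene that this rule took is not reported here. Positions, exon lengths and overlaps came from GENCODE M21 (GRCm38), and promoters from RefSeq (GRCm38.p6). Copies were annotated pseudogenes aligning at 90% identity or more over at least 200 bases. Means are given ± SD (n = 2 libraries). No pair of libraries was a repeat deposit: their counts differed by a chi-square per degree of freedom of 5.16 in E12 KO, 14.2 in E12 WT, 5.04 in E47 KO and 4.77 in E47 WT. The E12 WT libraries thus differed most from each other. The model estimated the spread over the 4 groups together, so it may understate that of E12 WT. A floor of 3 counts was 0.117 to 0.224 CPM in a library and covers counting error only.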

Additional observations from a re-analysis of the deposited data

Results flagged for a closer look

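For 30 of the 35 genes tested, the knockout change in E12 differed from that in E47 by a direct test of the difference (edgeR's quasi-likelihood test, adjusted p under 0.05), where 48.6% of all genes did. Each value here is the log2 change in E12 minus the log2 change in E47, from 2 libraries per genotype. It was above 0 for 16 genes: Adm 4.32, Ankrd37 2.11, Slc16a3 1.93, Aldoa 0.96, Bnip3 0.96, Ldha 0.87, Eno1 0.85, Pfkl 0.82, Pfkfb3 0.50, Egln1 0.49, Pdk1 0.49, Egln3 0.43, Pfkp 0.42, P4ha1 0.39, Hif1a 0.36 and Pgk1 0.24. It was below 0 for 14 genes: Ndrg1 -2.67, Slc16a1 -2.22, Car9 -2.14, Pfkfb4 -1.49, P4ha2 -1.38, Eno2 -1.08, Ldhb -0.76, Vegfa -0.66, Pkm -0.43, Pfkm -0.42, Hk2 -0.39, Ddit4 -0.35, Pgam1 -0.30 and Tpi1 -0.25. The calls of Hk2, Tpi1, Pgk1, Pgam1, Egln3, Car9 and Ankrd37 were lost in 1 or more alternatives, and the other 23 held in all that were run.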

How the results depend on the processing

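No count of the genes higher or lower, of the 35 or of all genes, moved by over 1.5 times under any alternative run, and no called change reversed its sign. The count of genes called in opposite ways in the 2 knockouts, 11, was 7 under DESeq2 and 6 to 10 without 1 library, and that of genes called the same way, 10, was 7 to 10 without 1 library; these recounts were added after the data were seen. Leaving out 1 library gave 13 to 16 higher and 8 to 11 lower in E12, and 12 to 17 higher and 6 to 9 lower in E47; the lone library left in a group was assumed to vary like the others. Of the results of single genes (35 genes in 4 comparisons), DESeq2 lost 13 calls, no filter lost 8 and gained 2, total counts lost 9 and gained 10, RLE scaling lost 1, the fits of 4 libraries lost 3, and leaving out 1 library lost 5 to 15. The 10 gained under total counts were Gpi1 and Adm in E12, Slc2a1, Hk1, Pfkm, Ldhb, Egln3 and Bnip3 in E47, and Pfkfb4 and Ndrg1 between the wild types. Some fits that left out 1 library gained calls too. The causes were not tested. No paired analysis was possible because the labels give no replicate numbers that pair libraries. With 2 extractions per genotype, small changes and genes near 1 CPM (Ankrd37, Car9) are the least certain.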
